A study of Bombus terrestris with 16 samples.

Results

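Colony L is 1 of 4 colonies of the bumblebee Bombus terrestris whose worker guts were sequenced as poly(A) RNA. Its 4 libraries were selected by the colony label, out of 16 in all, and were set against the 12 libraries of colonies K, S and T. The 4 colony L libraries are the genotype 068, genotype 075 and genotype 161 exposures and the unexposed control, and K, S and T each hold the same 4. The genotypes are strains of Crithidia bombi, a trypanosome parasite of bumblebee guts. Every library pooled the guts of 3 workers that were 7 d old, and the bees were killed 18 h following exposure. Each colony and exposure has 1 library, so exposure served as a block and the 4 libraries of a colony as its replicates. These 4 libraries replicate 1 colony, so a p-value here measures the spread between libraries within colonies, not between colonies in general. Spread between single workers was not measured. In bulk gut RNA, fewer cells of a type and less RNA per cell cannot be told apart.

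A bumblebee colony descends from a single queen, so its workers are close relatives, and colonies differ in the gene variants that they carry. The worker gut digests pollen and nectar with secreted proteases, glucosidases and lipases, detoxifies plant compounds with cytochrome P450 enzymes, and lies behind a chitin-containing lining. Crithidia bombi is taken up by mouth and attaches in the gut, and the outcome of exposure depends on both the host line and the parasite strain.

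The gut label was met in colony L. The 43 tested digestive proteases together took 69910 to 104000 CPM (reads scaled to a common library size) in the 4 colony L libraries, against 54920 to 105100 in the other 12. The 35 carbohydrases and lipases took 93530 to 135600 CPM in colony L, against 67550 to 129400 elsewhere. RNA of neighbouring tissues was present at overlapping levels in both. The summed muscle markers ran from 3161 to 4619 CPM in colony L and from 2847 to 5122 CPM in the others, and Malpighian tubule markers from 14020 to 15670 and from 12020 to 16030 CPM. The nervous system markers summed to 469.6 to 662.2 CPM in colony L, against 505.9 to 602.7 CPM. The 2 germ line markers reached 31.24 to 48.92 CPM in colony L and 30.96 to 49.2 CPM elsewhere. For hemocytes the list held only a pair of integrin beta records, at 26.25 to 39.65 CPM in colony L and 32.91 to 63.45 CPM in the other libraries. Integrin beta records alone do not measure hemocyte content. The part of these tissues in the results was not tested.

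One colony L library, genotype 161, stood apart. It was the highest of all 16 libraries in 1522 of 8406 tested genes and the lowest in 2019, against 227 to 1220 and 217 to 759 in the other 15. Within colony L, genotype 068, genotype 075 and the control were highest in 470, 311 and 320 genes. Its total of 8.92 M reads lay inside the range of all libraries, 8.47 to 9.29 M. Reads of genotype 161 covered less of the transcripts on average. Genes with 50 to 200 reads in that library had a mean of 55.1% of their length covered, against 58.3% to 64.9% in the others. The genes in this range differ between libraries. Over the same 2482 genes, chosen by a mean of 50 to 200 reads over all libraries, it was 49.5%, against 56.6% to 65.8%. The genotype 161 library also had at most 3 reads in 50 genes that averaged at least 5 CPM elsewhere, against 0 to 26 such genes in any other library. Results that change without genotype 161 are therefore given with and without it, though not for every gene and list.

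**Figure D1:**
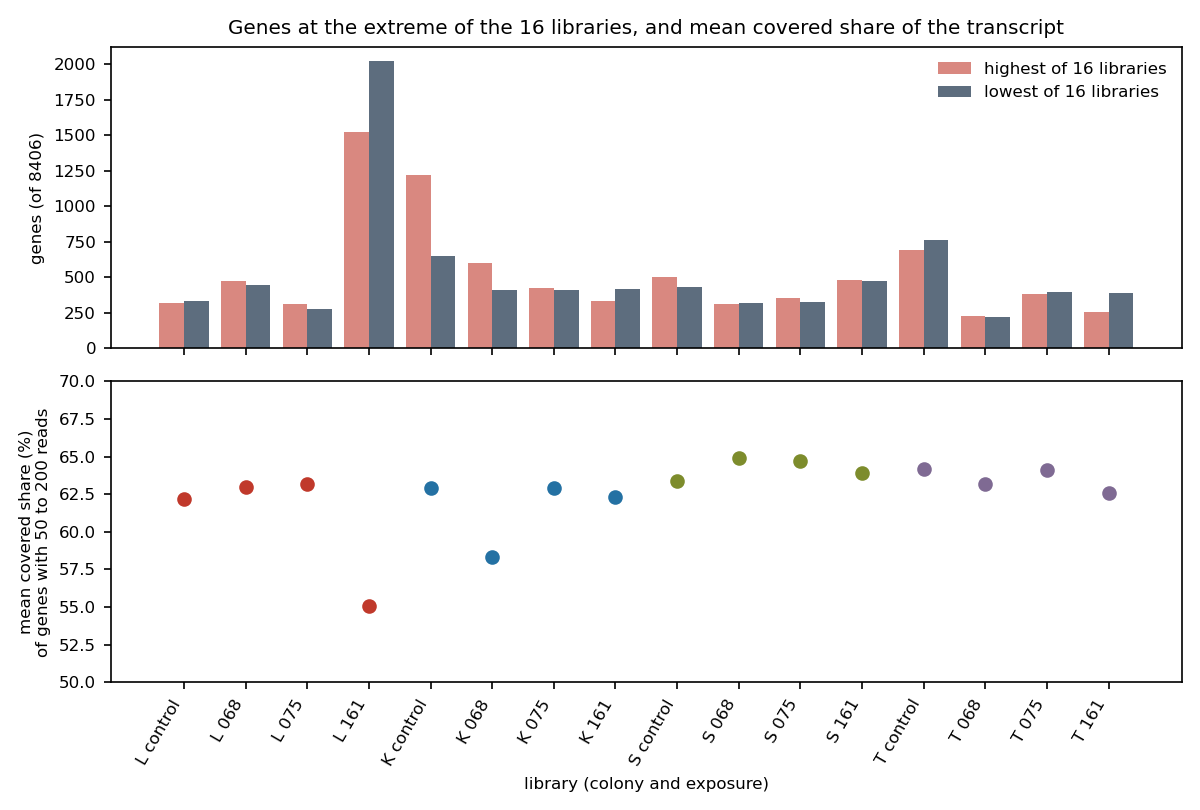
Upper panel: for each of the 16 libraries, grouped by colony with L at the left, bars give the number of 8406 genes at which that library is the highest or the lowest of 16. Lower panel: points give the mean covered share of the transcript (%, axis from 50) for genes with 50 to 200 reads in that library. L 161 has 1522 highest and 2019 lowest genes and the smallest covered share, 55.1%.

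The genes furthest out in the genotype 161 library of colony L were picked for that gap, so their values are a description with no test. Glutathione synthase (XM_003402667.1), which makes the antioxidant glutathione, had 0 CPM in genotype 161 and 17.7, 18.9 and 18.2 CPM in the control, 068 and 075 libraries of colony L, and 7.74 to 21.8 CPM in the other 15 libraries. The BRE subunit of the BRCA1-A complex (XM_003394960.1), a DNA damage signalling complex, stood at 0.276 CPM in genotype 161 and at 16.1, 24.7 and 26.9 CPM in the control, 068 and 075 libraries of colony L, within 13.0 to 31.8 CPM in the other 15. Another 4 records had 0 reads in genotype 161. In the control, 068 and 075 libraries of colony L a ribosomal protein S10e record (XM_003398433.1) had 39.3, 14 and 23.7 CPM, and its lowest value in the other 15 was 3.99 CPM. A ribosomal protein L28e record (XM_003402543.1) had 10.9, 22.4 and 20.1 CPM in these 3, and a lowest of 3.42 CPM. A KRAB zinc finger record (XM_003401955.1) had 4.41, 4.97 and 3.90 CPM, and a lowest of 3.64 CPM. The deubiquitinase ataxin 3 (XM_003396614.1) had 4.64, 6.63 and 7.10 CPM, and a lowest of 3.35 CPM. A single library is thus unread at genes that every other library reads. On the high side, signal peptidase complex subunit 2 (XM_003398246.1), part of the enzyme that trims secreted proteins, had 169 CPM in genotype 161, against 63.2, 61.0 and 66.7 in the control, 068 and 075 libraries of colony L and at most 82.3 in the other 15. Spectrin beta (XM_003397063.1), a membrane skeleton protein, had 104 CPM in genotype 161, against 53.2, 26.2 and 31.8 CPM in the other colony L libraries and at most 54.7 in the 15. CCR4-NOT subunit 1 (XM_003396577.1), the scaffold of the main mRNA deadenylase, had 64.3 CPM, against 31.1, 18.0 and 21.8 CPM, the first of which was the highest of the 15. Mediator subunit 13 (XM_003397392.1), a transcription cofactor, had 15.5 CPM, against 6.84, 3.53 and 2.72 CPM, and splicing factor 3B subunit 4 (XM_003400235.1) had 118 CPM, against 62.2, 36.6 and 54.8 CPM. A cytochrome b561 domain protein (XM_003395883.1) had 56.4 CPM, against 27.8, 16.6 and 27.1 CPM. These 6 genes were all above every other library in genotype 161 alone. Genes highest of 16 in this library had a median length of 2935 bases and those lowest 2011, against 2442.5 over all tested genes. Its scaling factor, 0.811, was the lowest of the 16 libraries. The part of transcript length and scaling in these values was not tested.

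Against the mean of K, S and T, 9 of 8406 genes differed in colony L, 3 higher and 6 lower (edgeR's quasi-likelihood test with exposure as block, Benjamini-Hochberg adjusted p under 0.05). That is 0.107% of the genes tested, 0.0357% higher and 0.0714% lower. They include a metabolic reductase, a tetraspanin, a glycolipid enzyme and a cation channel that were lower in colony L, and a toll-like receptor that was higher. In 4 of the 9 the colony L libraries did not overlap the other 12, and 3 of these 4 have a usable description. At an unadjusted p below the same threshold there were 1086 genes (12.9%), 581 higher and 505 lower. That number was 614 without L 161 and 635 without the L control. Colonies K, S and T, set against the other colonies in the same way, gave 30, 21 and 12 genes. Without the genotype 161 library of colony L 5 genes passed, which were the reductase, the tetraspanin, the galactosyltransferase, LOC100646603 and LOC100642491, and 5 passed without its control. Without its genotype 068 library, or without K 068, 17 passed, and without the T control 14. The error in this test is the spread within colonies. With K, S and T taken as one group of 12, so that the spread between colonies enters, edgeR gave no gene past the threshold (count of 0, with 1044 genes at unadjusted p below 0.05 and a smallest adjusted p of 0.221).

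**Figure D2:**
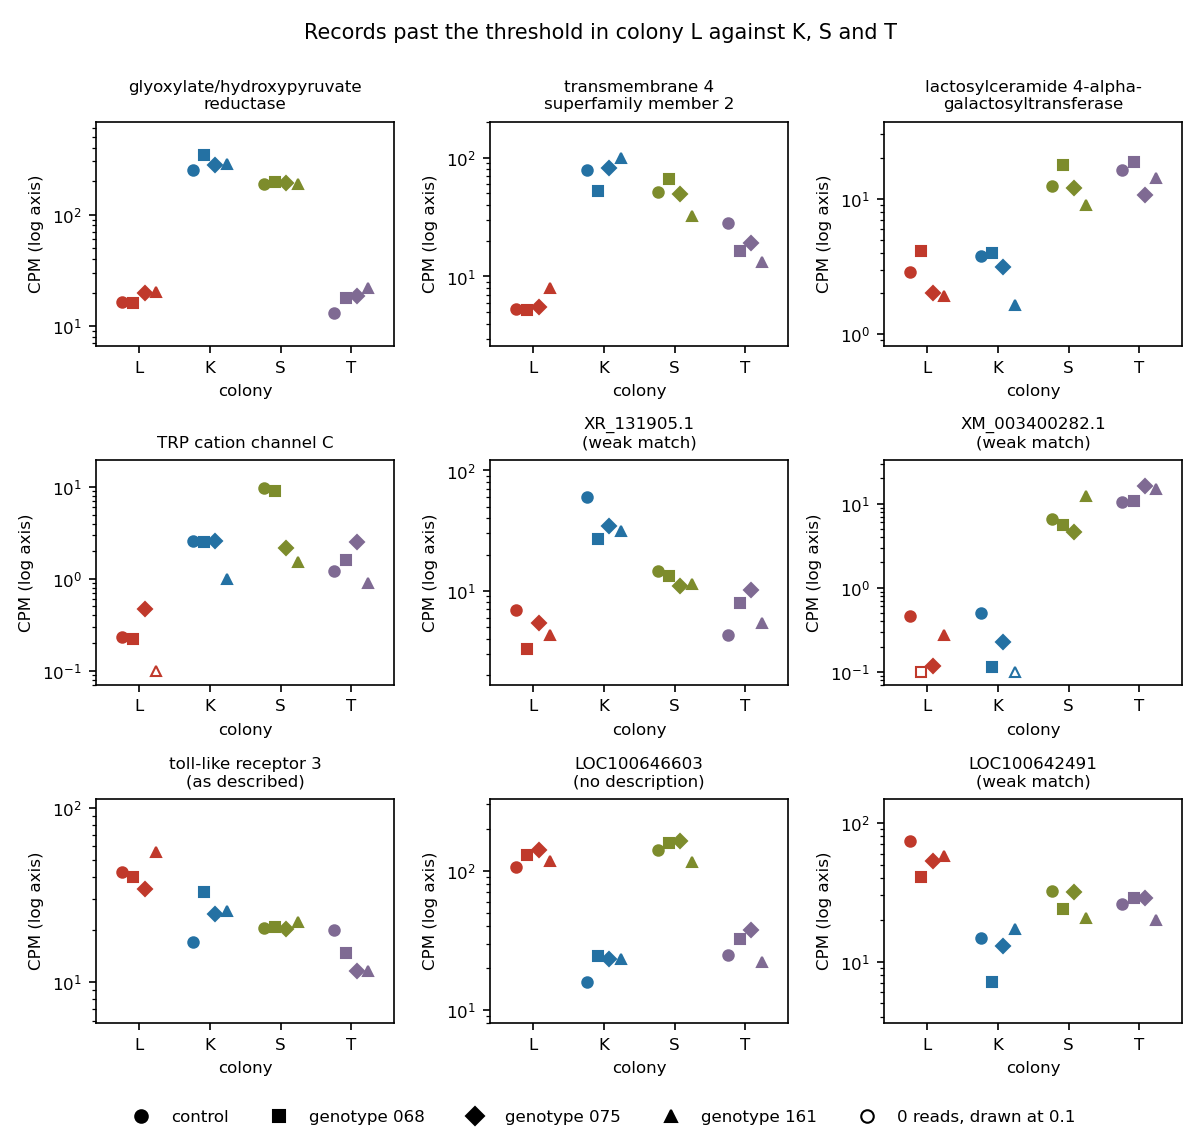
Each panel shows 1 of the 9 records past the threshold: CPM on a log axis in colonies L, K, S and T from left to right, with a marker shape per exposure and open markers for 0 reads. The tetraspanin, the TRP channel, the toll-like receptor and LOC100642491 set colony L apart from all 12 others, while the reductase, LOC100646603, the galactosyltransferase, XR_131905.1 and XM_003400282.1 have a second colony that overlaps L.

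Glyoxylate/hydroxypyruvate reductase (XM_003398972.1, LOC100647868) reduces glyoxylate and hydroxypyruvate, by-products of amino acid and sugar breakdown. It had 16.6, 16.1, 20 and 20.3 CPM in the control, 068, 075 and 161 libraries of colony L. The K libraries ran from 253 to 341, the S libraries from 189 to 198 and the T libraries from 13.2 to 22.0 CPM. Colony L thus sat with T, and both lay below every K and S library. The log2 difference from the mean of K, S and T was -2.45 ± 0.13 (SE, adjusted p = 2.13e-07). Against K alone it was -3.98 ± 0.15 (adjusted p = 2.52e-09) and against S -3.40 ± 0.14 (adjusted p = 1.49e-08), both by edgeR. A second record with this description, XM_003398973.1, had 3.25, 3.09, 2.84 and 1.80 CPM in colony L and 2.89 to 7.98 CPM in the others (log2 difference -0.71 ± 0.26, adjusted p = 0.341), so the groups overlapped.

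The tetraspanin described as transmembrane 4 superfamily member 2 (XM_003393594.1, LOC100651747) belongs to a family of membrane organisers with 4 membrane spans. It had 5.33, 5.19, 5.56 and 8.01 CPM in the control, 068, 075 and 161 libraries of colony L. In T it ran from 13.3 to 28.2, in S from 32.3 to 65.7 and in K from 52.5 to 100 CPM. No library of another colony reached down to colony L, and the log2 difference was -2.80 ± 0.27 (adjusted p = 0.000222, edgeR). The colonies themselves fell in the order L, T, S and K, with no overlap between neighbours except between S and K.

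Lactosylceramide 4-alpha-galactosyltransferase (XM_003396646.1, LOC100650768) adds galactose to a membrane glycolipid in mammals. Colony L had 2.90, 4.09, 2.01 and 1.93 CPM, control first and then 068, 075 and 161. The K libraries overlapped these at 1.63 to 3.99 CPM, whereas S held 8.99 to 17.7 and T 10.6 to 18.6 CPM. The log2 difference from the mean of the 3 colonies was -1.64 ± 0.20 (adjusted p = 0.00274, edgeR); without S it was -1.34 (adjusted p = 0.125) and without T -1.22 (adjusted p = 0.135). Against S alone the difference was -2.24 ± 0.23 and against T -2.49 ± 0.23, with edgeR adjusted p-values of 0.000425 and 0.000166.

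The record described as toll-like receptor 3 (XM_003396806.1) is 1 of several leucine-rich-repeat receptor records with that description. In insects, Toll receptors act in development and in the signalling that induces antimicrobial peptides. It had 42.9, 39.9, 34.1 and 56.0 CPM in the control, 068, 075 and 161 libraries of colony L, against 17.1 to 33.0 in K, 20.1 to 22.2 in S and 11.6 to 19.9 CPM in T. All 4 colony L libraries lay above all 12 others, with a log2 difference of 1.13 ± 0.17 (adjusted p = 0.0136, edgeR). The closest pair was L 075 at 34.1 CPM and K 068 at 33.0 CPM. Without L 161, L 075 or the L control, and without colony S or T, it no longer passed.

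Both of the next records carry the toll-like receptor 3 description and had another profile. XM_003395506.1 had 3.25, 3.09, 4.38 and 7.46 CPM in colony L and 3.17 to 167 CPM in the others, and the K 161, T control and T 161 libraries were as low as colony L, at 3.64, 3.17 and 3.69 CPM. XM_003396298.1 had 108, 109, 98.1 and 8.43 CPM in colony L and 64.1 to 134 CPM elsewhere, with genotype 161 alone below. Neither passed (log2 differences -3.66 ± 1.22 and -0.32 ± 0.43, edgeR adjusted p = 0.335 and 0.737). Toll-interacting protein (XM_003402981.1), an adaptor of Toll signalling, had 80.0, 91.9, 87.1 and 97.7 CPM in colony L, against 65.4 to 88.4 CPM (0.24 ± 0.10, adjusted p = 0.367).

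A TRP cation channel of subfamily C (XM_003402132.1, LOC100651056) is a member of the family that includes the calcium channels of insect photoreceptors. It was nearly unread in colony L, at 0.232, 0.221, 0.473 and 0 CPM in the control, 068, 075 and 161 libraries. The other 12 had 0.895 to 9.78 CPM, highest in the S control and S 068. In the colony L libraries the limit left by an unread gene, 3 reads, was worth 0.331 to 0.415 CPM and covers counting error only. The fitted log2 difference of -3.47 ± 0.58 (adjusted p = 0.0345, edgeR) depends on the prior count at such levels. The call was lost when any 1 colony L library was left out (adjusted p = 0.284, 0.0823, 0.0834 and 0.138 without the control, 068, 075 and 161, edgeR), and in 18 of 29 settings in all. The adjacent gene in the RefSeq order, LOC100643788 (XM_003402075.1), carries the same description. It had 9.05, 7.84 and 8.99 CPM in the control, 068 and 075 libraries of colony L but 19.9 CPM in genotype 161, against 7.44 to 35.7 CPM elsewhere. Its difference did not pass (-0.81 ± 0.32, adjusted p = 0.36).

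The remaining 4 records have no usable description. LOC100646603 (XM_003400974.1) had 106, 129, 142 and 118 CPM in colony L and 115 to 164 CPM in S, and only 16 to 24.5 CPM in K and 22.3 to 37.5 CPM in T. Its log2 difference from the 3 colonies was 1.46 ± 0.10 (adjusted p = 5.1e-06, edgeR), with L and S overlapping. LOC100642491 (XM_003396904.1) had 74.2, 40.9, 53.5 and 57.9 CPM in colony L and 7.17 to 32.2 CPM in the other 12, which do not reach it (1.42 ± 0.17, adjusted p = 0.00203). XR_131905.1 had 6.96, 3.31, 5.44 and 4.28 CPM in colony L, against 26.8 to 60.7 in K, 11 to 14.5 in S and 4.27 to 10.1 CPM in T (-1.60 ± 0.26, adjusted p = 0.0345). It lost its call in 15 of 30 settings, among them leaving out the control, 068, 075 or 161 library of colony L (edgeR adjusted p = 0.101, 0.0788, 0.19 and 0.138), and without colony K the difference was -0.89 (adjusted p = 0.185). XM_003400282.1 had 0.464, 0, 0.118 and 0.276 CPM in colony L, against 0 to 0.495 CPM in K, 4.57 to 12.3 CPM in S and 10.5 to 16.4 CPM in T (-3.67 ± 0.61, adjusted p = 0.0345). The difference of XM_003400282.1, near the floor, depends on the prior count. Its call was lost in 16 of 30 settings, among them leaving out the same 4 libraries in turn (edgeR adjusted p = 0.0811, 0.0567, 0.216 and 0.163) or the K control (0.109). Without S it was -2.99 (adjusted p = 0.286) and without T -2.61 (adjusted p = 0.387). Best matches of the last 3 to named proteins scored under 100 and are not used as names.

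Taken 1 colony at a time, edgeR called 11 genes between L and K (5 higher, 0.0595% of those tested, and 6 lower, 0.0714%; 0.131% in all), 7 between L and S (1 higher, 0.0119%, and 6 lower, 0.0714%; 0.0833% in all) and 7 between L and T (5 higher, 0.0595%, and 2 lower, 0.0238%; 0.0833% in all). These comparisons share the colony L libraries. The counts moved with single libraries. Between L and K there were 6 without K 075 and 7 without L 075. Between L and S there were 108 without the K control, and 12 without the S control and without the T control. Between L and T there were 23 without the K control, 14 without L 161, and 12 without K 068 and without the T control. Beyond the 9 genes above they added some that colony L shares with the colonies not compared; these are named after their values were seen. An NMDA-type glutamate receptor subunit (XM_003394411.1), a neuronal ion channel, had 15.3, 10.5, 13.3 and 13.4 CPM in the control, 068, 075 and 161 libraries of colony L, against 0.099 to 2.39 CPM in K (3.91 ± 0.55, adjusted p = 0.00731), while S and T had 12.8 to 23.5 and 4.56 to 15.6 CPM. Glucosylceramidase (XM_003402841.1), which degrades a glycolipid in lysosomes, had 37.9, 32.0, 44.6 and 49.1 CPM in colony L and 12.7 to 20 CPM in K (1.35 ± 0.19, adjusted p = 0.00731). A trehalose transporter (XM_003402640.1), which carries the blood sugar of insects, had 716, 606, 582 and 840 CPM in colony L and 339 to 468 CPM in K (0.72 ± 0.12, adjusted p = 0.0303). In these 3 genes K was the lowest of the 4 colonies. Lower than in K was kynurenine/2-aminoadipate aminotransferase (XM_003393468.1), an enzyme of tryptophan and lysine breakdown, at 2.32, 1.55, 4.02 and 3.32 CPM in colony L against 8.22 to 21.1 CPM (-2.30 ± 0.33, adjusted p = 0.00731). XM_003395555.1, with a weak match, had 0.696, 1.10, 0.710 and 0.553 CPM in colony L, against 6.37 to 9.01 CPM in K (-3.38 ± 0.48, adjusted p = 0.00731). XM_003399429.1, with an unspecific one, had 3.25, 4.42, 2.84 and 4.70 CPM, against 10 to 17.6 CPM (-1.98 ± 0.33, adjusted p = 0.0303, edgeR). The aminotransferase, XM_003395555.1 and XM_003399429.1 did not pass against the mean of K, S and T. Their S and T values are not given here, so a low L and a high K are not told apart.

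Against S alone, a serpin B record (XM_003399140.1), from a family of serine protease inhibitors that restrain immune proteases in insects, had 1.51, 0.331, 1.06 and 1.11 CPM in the control, 068, 075 and 161 libraries of colony L and 12.3 to 27.9 CPM in S (-4.26 ± 0.44, adjusted p = 0.000425, edgeR). K and T, at 1.37 to 2.77 and 1.10 to 2.98 CPM, were close to colony L. The 1 gene higher than in S was XM_003403354.1, with no description, at 4.29, 3.42, 6.98 and 6.63 CPM in colony L and 0.744 to 1.69 CPM in S (2.32 ± 0.36, adjusted p = 0.0191). Against T alone, a cytochrome P450 of family 28 (XM_003393818.1), of a class that oxidises foreign compounds, had 461, 485, 406 and 427 CPM in colony L and 187 to 253 CPM in T (1.07 ± 0.13, adjusted p = 0.0025). A record matched to valyl-tRNA synthetase (XM_003402964.1), which charges the transfer RNA for valine, had 32.6, 21.1, 15.4 and 50.9 CPM in colony L and 0.912 to 2.32 CPM in T (4.19 ± 0.35, adjusted p = 6.58e-05). XM_003394077.1, with a weak match, was higher as well, at 30.0, 32.2, 36.3 and 45.2 CPM in colony L and 16.2 to 20.2 CPM in T (1.01 ± 0.13, adjusted p = 0.00416). In each of these 3 the low colony was T, while K and S both overlapped colony L.

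In 25 genes the 4 colony L libraries did not overlap the other 12. Of these 12 lay above (0.143% of the genes tested) and 13 below (0.155%), against 39 such genes for K, 54 for S and 28 for T. Without genotype 161 of colony L there were 50, a count that grows as libraries leave. Only 4 of the 25 passed the test across all genes. The members named next were chosen after their values were seen, and none of them passed.

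Enzymes that handle acyl-CoA and aldehydes were on both sides. An aldehyde dehydrogenase (XM_003397341.1), which oxidises aldehydes to acids, had 1220, 1220, 1120 and 1180 CPM in the control, 068, 075 and 161 libraries of colony L, against a lowest of 630, a median of 857 and a highest of 988 CPM (log2 difference 0.52 ± 0.11, adjusted p = 0.137). An acyl-CoA oxidase (XM_003401446.1), the first enzyme of peroxisomal fatty acid breakdown, had 4.87, 5.08, 4.97 and 5.11 CPM in colony L and 1.74 to 4.27 CPM elsewhere (0.79 ± 0.25, adjusted p = 0.308). Diazepam-binding inhibitor (XM_003398753.1), an acyl-CoA carrier, had 248, 266, 273 and 248 CPM, against 162 to 244 CPM (0.26 ± 0.10, adjusted p = 0.354). Both of the branched-chain acyl-CoA dehydrogenases among the 25 lay below. The short/branched chain enzyme (XM_003401080.1), of isoleucine breakdown, had 17.3, 18.2, 16.1 and 10.6 CPM in colony L, against 19.0 to 34.7 CPM (-0.72 ± 0.19, adjusted p = 0.231). Isovaleryl-CoA dehydrogenase (XM_003398478.1), of leucine breakdown, had 19.1, 22.4, 17.7 and 18.0 CPM, against 22.6 to 33.8 CPM (-0.46 ± 0.13, adjusted p = 0.251). The margin was small in the last gene, with L 068 at 22.4 CPM and S 068 at 22.6 CPM.

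Among the others were matrix and membrane genes. Type IV collagen is the network protein of the basement membrane under the gut epithelium. One collagen IV record (XM_003399618.1, LOC100649307) had 23.8, 24.1, 20.9 and 22.1 CPM in colony L, against 26.2 to 42.5 CPM (-0.55 ± 0.14, adjusted p = 0.198). The second, XM_003399617.1 (LOC100649188), lies 2 genes away in the RefSeq order and had 31.7, 21.9, 18.7 and 27.5 CPM, against 28.4 to 54.0 CPM (-0.57 ± 0.16, adjusted p = 0.258); there the L control overlapped the others. An ADAMTS 17 protease (XM_003393142.1), of a family that cuts extracellular matrix, had 60, 43.0, 49.0 and 47.9 CPM in colony L, against 19.4 to 36.6 CPM (0.76 ± 0.15, adjusted p = 0.106). Cystinosin (XM_003402158.1), which exports cystine from lysosomes, had 9.97, 7.07, 6.51 and 12.2 CPM, against 1.79 to 6.38 CPM (1.41 ± 0.27, adjusted p = 0.0863). A serine protease described as transmembrane protease, serine 9 (XM_003401196.1) had 1500, 1470, 1440 and 1420 CPM in colony L, against 783 to 1410 CPM (0.48 ± 0.11, adjusted p = 0.161). The STING adaptor of innate immune signalling (XM_003401851.1) had 8.23, 9.50, 8.16 and 4.56 CPM, against 10.4 to 15.1 CPM (-0.73 ± 0.19, adjusted p = 0.225).

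Low in colony L were also an EAG-type potassium channel (XM_003399210.1), at 0, 0.442, 0.237 and 0.415 CPM against 0.879 to 4.04 CPM, and Ras homolog T1 (XM_003399282.1), a mitochondrial transport GTPase, at 0, 0.442, 0.592 and 0 CPM against 0.638 to 2.28 CPM. For Ras homolog T1 a second record of the same locus (XM_003399281.1) had 5.68, 9.72, 6.03 and 4.70 CPM in colony L and 4.04 to 12.1 CPM elsewhere, so the reads of this locus as a whole did not separate. The DNA replication helicase MCM8 (XR_132443.1) had 3.6, 3.09, 3.31 and 2.76 CPM in colony L, against 3.80 to 7.92 CPM (-0.83 ± 0.20, adjusted p = 0.183). Recoverin (XM_003393304.1), a calcium sensor, had 1.62, 1.44, 1.54 and 1.66 CPM in colony L, against 1.72 to 2.93 CPM.

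**Figure D3:**
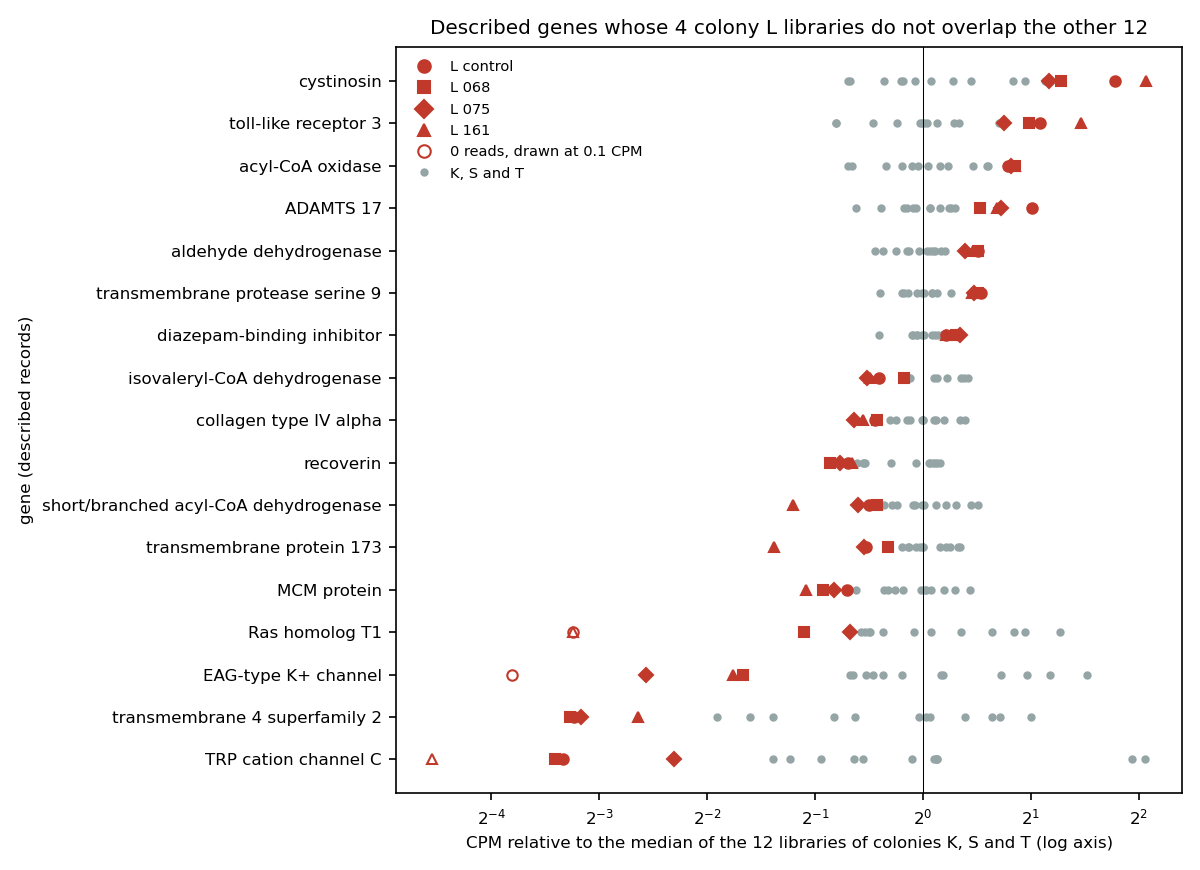
Each row is 1 of the 17 described genes whose 4 colony L libraries do not overlap the other 12. The horizontal axis (log) gives CPM relative to the median of the 12 libraries of K, S and T; red markers are colony L by exposure, grey points the others, and open markers 0 reads drawn at 0.1 CPM. Gaps are wide for the tetraspanin and the TRP channel and narrow for isovaleryl-CoA dehydrogenase, at 22.4 CPM in L 068 and 22.6 CPM in S 068.

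A set of 24 of 10635 records was at or below 3 reads in each colony L library although it averaged at least 3 CPM over K, S and T; the same rule found 0 records for K, 1 for S and 9 for T. It includes the homeobox gene HoxA/B/D3 (XM_003402127.1), a transcription factor of body patterning, which had 1 read over the 4 colony L libraries and up to 52.0 CPM in the K control. A UDP-glucuronosyltransferase (XM_003392972.1), an enzyme that couples foreign compounds to sugar acids, had 0 reads in colony L and averaged 12.2 CPM in the others. Of those 12 libraries 8 had over 3 reads of this enzyme. The S control and T control had 0 CPM, K 161 had 0.251 CPM and T 161 had 0.223 CPM, as low as colony L. The fitted difference of this enzyme did not pass (adjusted p = 0.301, edgeR). A SOX group B transcription factor (XM_003398882.1) had 0.232, 0, 0.118 and 0.277 CPM in the control, 068, 075 and 161 libraries of colony L, against 14.9 CPM in the K control. The chaperone DnaJ B6 (XM_003402130.1) had 0, 0, 0.355 and 0.277 CPM in colony L, against 43.2 CPM in the K control. Actin-like protein 6B (XM_003393784.1), a chromatin remodelling subunit, had 0 reads in all 4, against 15.9 CPM in the K control. Of the 12 libraries of K, S and T, 8 had over 3 reads of the SOX factor, 8 of DnaJ B6 and 7 of actin-like protein 6B. Myosin light chain kinase (XM_003401133.1) had 0, 0, 0.237 and 0 CPM in colony L, against 242 CPM in the K control and 192 CPM in S 075. In the remaining K, S and T libraries this kinase had at most 0.223 CPM, as low as in colony L. None of those that met the filter passed.

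Colony L shared this absence with single libraries of the other colonies. The T control and T 161 were at or below 3 reads in 23 of the 24 records, the S control in 23 and K 161 in 22. The K control was above that level in all 24 and was the highest of 16 libraries in 20, with a median of 28.6 CPM, and S 075 followed at a median of 14.7 CPM. For HoxA/B/D3 the K control, S 068, S 075, S 161, T 068 and T 075 had 52.0, 33.5, 23.4, 50.4, 22.1 and 28.3 CPM, while the S control, K 161 and T 161 had 0. These records thus vary between libraries inside K, S and T. All 4 libraries of colony L are low by the rule that chose the records, so this is not a result. The cause was not tested.

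**Figure D4:**
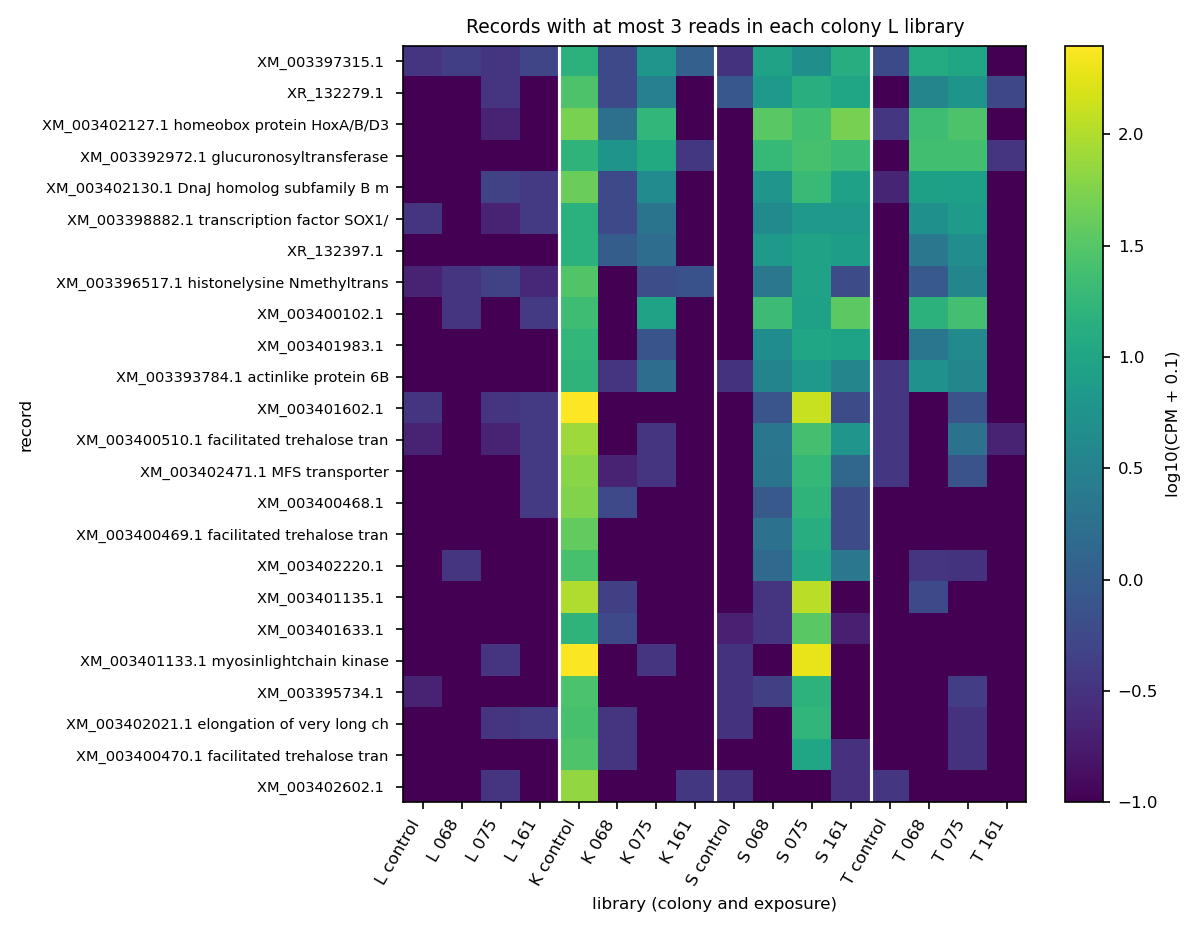
Colour gives log10(CPM + 0.1) of the 24 records (rows) with at most 3 reads in each colony L library, across the 16 libraries (columns, colony L at the left, white lines between colonies). The 4 colony L columns are dark throughout, by the rule that chose the records. The S control, T control, T 161 and K 161 are dark as well, and the K control and S 075 are bright.

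Gene lists were described by their counts and medians beside those of all 8406 genes, whose median log2 difference was -0.03, with 6.91% higher and 6.01% lower at an unadjusted p under 0.05. When 1 library was left out these were 268 to 966 genes higher and 244 to 650 lower, and the counts in the lists moved as well. Apart from the toll-like receptor, no list member passed the adjusted threshold. The cell cycle list, of replication and mitosis genes, had the lowest median of the lists with at least 10 genes. Of its 43 genes 33 were on the lower side and 10 on the higher; 9 (20.9%) were lower at an unadjusted p under 0.05 and 3 higher, with a median of -0.34. MCM5 (XM_003395762.1), a subunit of the replicative helicase, had 5.22, 5.74, 5.44 and 3.73 CPM in the control, 068, 075 and 161 libraries of colony L, against a lowest of 3.52, a median of 9.97 and a highest of 15.2 CPM (-0.91 ± 0.26, adjusted p = 0.273). MCM10 (XM_003396920.1), a replication initiation factor, had 4.75, 3.31, 3.79 and 0.967 CPM, against 2.96 to 11.8 CPM (-1.07 ± 0.37, adjusted p = 0.335). In sum the list had 434 to 446.9 CPM in colony L and 411.3 to 704.4 CPM in the others. The median was -0.24 without L 161, with 5 lower genes and 0 higher. The 9 lower became 4 without the L control, and 5 without L 075, S 075, S 161, T 068 or T 075. Without L 161, the K control and S 075 it was -0.07, with 4 lower and 0 higher; relative to each gene's mean, the list median was 0.52 in the K control and 0.44 in S 075, the highest of all.

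Genes of digestion, detoxification and the gut lining held members on both sides. The 55 detoxification genes had 9 higher and 5 lower at an unadjusted p under 0.05 (median 0.09). A family 6 cytochrome P450 (XM_003400081.1) had 2110, 1440, 2000 and 1660 CPM in colony L, against a lowest of 608, a median of 1030 and a highest of 1700 CPM (0.77 ± 0.18, adjusted p = 0.156). A glucuronosyltransferase other than the one above (XM_003402872.1) had 14.4, 22.0, 9.94 and 13.1 CPM, against 0.707 to 10 CPM (1.72 ± 0.44, adjusted p = 0.225). Of 43 digestive proteases 6 were higher and 4 lower at that level (median 0.07), 4 and 5 without L 161 (median -0.02), and 10 were higher without K 161. A chymotrypsin (XM_003398194.1) had 46.9, 33.0, 36.4 and 53.6 CPM in colony L, against 24.2 to 35.8 CPM (0.46 ± 0.11, adjusted p = 0.165). A dipeptidyl-peptidase 4 (XM_003399165.1), which removes dipeptides from chain ends, had 52.8, 67.4, 47.1 and 58.5 CPM, against 59.4 to 119 CPM (-0.69 ± 0.15, adjusted p = 0.137). The lysosomal protease cathepsin O (XM_003393744.1) had 12.5, 18.7, 17.4 and 8.01 CPM, against 13.6 to 31.6 CPM (-0.79 ± 0.21, adjusted p = 0.243). The 35 carbohydrases and lipases had 6 higher and 3 lower (median 0.04), and 3 of each without L 161 (median 0.02). The 25 gut lining genes had 3 higher and 1 lower, with a median of 0.15 that was 0.03 without L 161; 7 were higher without L 068, and 5 without K 068, L 075, S 075 or the T control. Among them a chitinase (XM_003402937.1), which degrades chitin, had 2150, 1780, 1820 and 2330 CPM in colony L, against 909 to 1880 CPM (0.64 ± 0.18, adjusted p = 0.254). A record described as intestinal mucin 2 (XM_003393520.1) had 3.6, 2.32, 3.43 and 5.94 CPM, against 0.224 to 2.61 CPM (1.87 ± 0.46, adjusted p = 0.181).

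In the lipid metabolism list, of fatty acid synthesis and breakdown, 41 of 63 genes were on the higher side in colony L, 10 (15.9%) higher and 3 lower at an unadjusted p under 0.05, with a median of 0.13. Without L 161 the median was 0.10, with 6 higher and 3 lower, and the 10 higher became 6 without the L control or T 075 and 5 without L 075. An acyl-CoA synthetase (XM_003396345.1), which activates fatty acids, was on the other side, at 14.3, 12.5, 5.21 and 9.53 CPM in colony L against 12.8 to 95.2 CPM, highest in the K control (-1.55 ± 0.43, adjusted p = 0.251). Among 232 solute carriers 22 were higher and 12 lower at that level, and 4 were lower without the L control. Without L 161, 15 of 237 were higher and 12 lower. A proton-coupled amino acid transporter of family 36 (XM_003396353.1) had 455, 412, 414 and 469 CPM in colony L, against 243 to 426 CPM (0.51 ± 0.10, adjusted p = 0.106). A family 17 transporter (XM_003394965.1) had 77.9, 58.6, 74.1 and 62.0 CPM, against 73.6 to 118 CPM (-0.48 ± 0.11, adjusted p = 0.156). Catalase (XM_003395923.1), which breaks down hydrogen peroxide, was the 1 gene of 22 in oxidative defence at that level, at 692, 532, 482 and 738 CPM in colony L against 303 to 587 CPM (0.59 ± 0.14, adjusted p = 0.165).

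Some list medians or counts rested on genotype 161. The 62 genes of mitochondrial energy metabolism, the respiratory chain and its partners, had 48 on the lower side, but the 4 colony L libraries disagreed. Relative to each gene's mean over 16 libraries, the median was -0.22 in the control, 0.14 in 068, 0.08 in 075 and -0.36 in 161, against -0.14 to 0.19 in the others. Without L 161 the median difference was 0.00, with 32 of 64 genes higher. Of the 62 genes 6 were lower at an unadjusted p under 0.05, and leaving out 1 library gave 1, without L 161 or the L control, to 12, without L 068. The 23 epithelial renewal signals, which include EGF, Wnt and BMP pathway members that control gut stem cells in flies, stood at 0.08, 0.04, -0.04 and 0.28 in the control, 068, 075 and 161 libraries, against -0.19 to 0.07 elsewhere; 4 were higher at an unadjusted p under 0.05 (median 0.11), and 0 of 24 without L 161 (median 0.09). The 4 became 1 without K 161 or S 161 and 2 without the L control, L 075 or T 075. The 28 immune genes had 2 higher, 1 of them the toll-like receptor, and 2 lower (median 0.04). Ribosomal proteins (95 genes, median 0.05, 6 higher and 3 lower at that level), the proteasome (36, 0.00, 1 and 1), chaperones (45, -0.05, 0 and 2) and the secretory pathway (40, -0.05, 1 and 0) had medians within 0.1 of that of all genes. Without L 161 the proteasome median was 0.08, with 28 of 36 genes on the higher side, against 18 with it. The 6 higher ribosomal proteins became 15 without K 068, 12 without K 161, L 068 or the T control, 10 without the S control, 1 without L 075, and 18 with the length trend removed. Medians were as close for Malpighian tubule markers (45, 0.02, 0 and 1), muscle markers (22, 0.05, 0 and 2) and nervous system markers (34, -0.07, 3 and 2), though the last was -0.21 without L 161. The 5 clock genes (median 0.07, 1 and 0), 8 gustatory receptors (-0.44, 0 and 1), 10 hormone genes (-0.01, 0 and 0) and 2 germ line genes (-0.12, 0 and 0) were too few to describe further. Without L 161 the gustatory median was -0.17 and the hormone median -0.1. Both integrin beta records of the hemocyte list were lower at that level, and neither was without L 161, the L control, L 075, the K control or T 075. Hemocyte content cannot be read from these records alone. XM_003393164.1 stood at 4.75, 1.99, 4.85 and 3.32 CPM in colony L against 2.45 to 20.5 CPM, and XM_003398970.1 at 28.2, 37.7, 33.8 and 22.9 against 29.2 to 47.2 CPM.

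**Figure D5:**
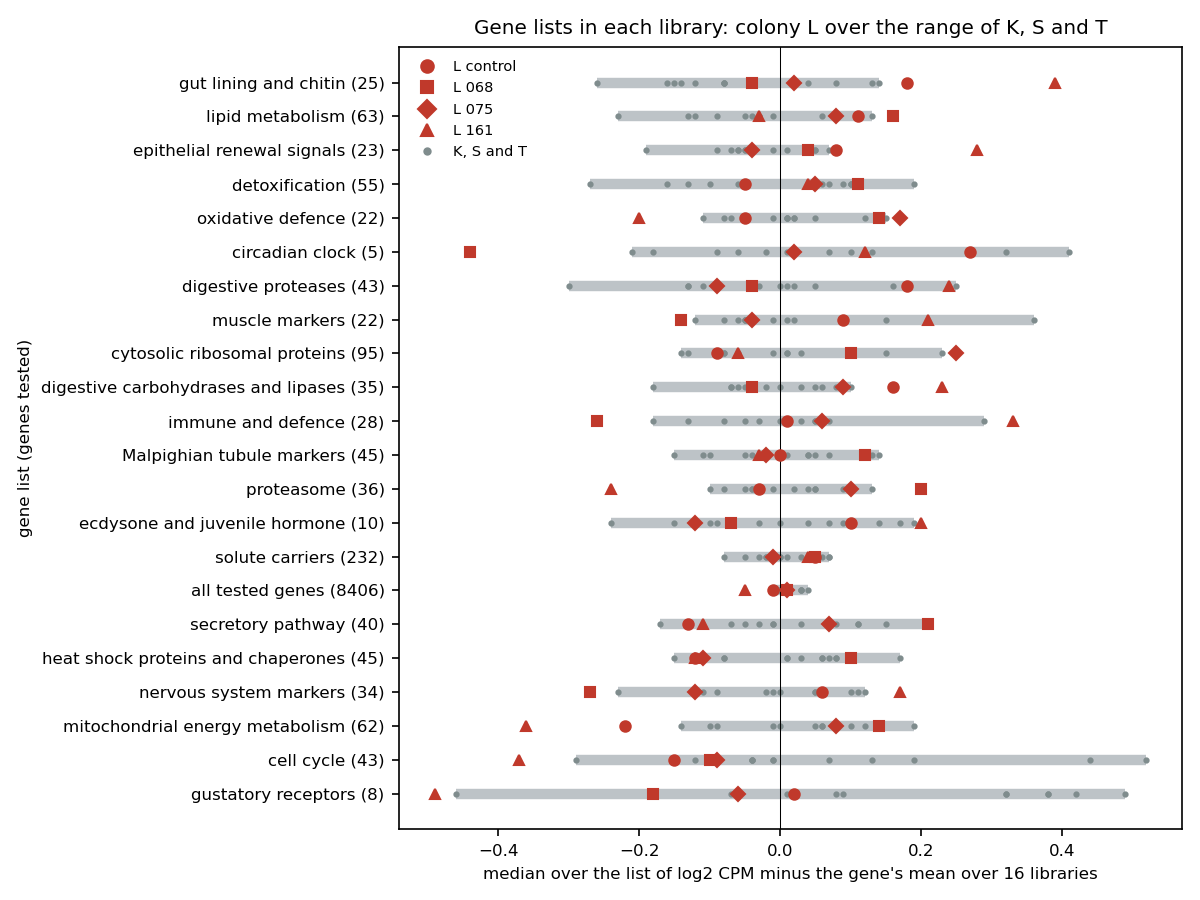
For each gene list (number tested in brackets, lists with at least 5 genes), red markers give the median over the list in each colony L library and grey points those in the 12 others, with their range as a bar; the axis is log2 CPM minus the gene's mean over 16 libraries. L 161 lies outside the range of the others in several lists, such as mitochondrial energy metabolism at -0.36 and gut lining at 0.39, while the cell cycle markers of L lie at -0.37 to -0.09.

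Whether exposure changed expression otherwise in colony L than in K, S and T was tested as the difference between exposed and control libraries. That test rests on the 1 control library of colony L. By chance alone 420 of the 8406 genes would have an unadjusted p below 0.05. Fewer did in the main edgeR fit, so a lack of passing genes there cannot show that the responses were equal. With edgeR 0 genes passed (0.0%, 58 at unadjusted p below 0.05, smallest adjusted p 1), and with DESeq2 5. The 58 became 320 without L 161, 195 without the K control, 107 without the T control, 91 without the S control, and 468 without L 161, the K control and S 075, while 0 passed in each. In all 5 that DESeq2 called the colony L control had 0 reads, and the S and T controls had at most 0.213 and 0.244 CPM. In the exposed 068, 075 and 161 libraries of colony L, a GDP-fucose transporter (XM_003402106.1) had 0.442, 0.710 and 1.38 CPM and an acyl-CoA oxidase (XM_003401557.1) had 5.30, 2.13 and 2.49 CPM. A cytochrome P450 of family 15 (XM_003396659.1) had 0, 0.83 and 0.83 CPM, a forkhead box L factor (XM_003403085.1) had 0.663, 0.237 and 0.276 CPM, and XM_003401390.1 had 0, 1.18 and 0.83 CPM. The K control had 123 CPM of the transporter, 60.6 of the P450, 8.22 of the forkhead factor and 39.2 of XM_003401390.1. S 075 had 23.3, 26.9, 9.58 and 20.5 CPM of the same records, above every colony L library. For the acyl-CoA oxidase the K control had 0.594 CPM and S 075 2.83 CPM. The fitted log2 differences, 16.58 to 23.6, have no reliable size with 0 reads in the colony L control. For the records named next only colony L values are given, which do not show the tested difference from K, S and T. Those at 0 in the colony L control have no reliable size of difference either. The smallest p in edgeR belonged to the checkpoint protein MAD1 (XM_003397340.1), at 1.55, 0.473 and 0.276 CPM in the exposed colony L libraries and 0 in its control (unadjusted p = 0.00892). Next came a long-chain fatty acid ligase (XM_003392954.1), at 4.97, 1.89 and 2.76 CPM against 8.12 in the control, and battenin (XM_003393788.1), a lysosomal membrane protein, at 58.9, 62.1 and 65.1 against 44.8 CPM in the control (edgeR, unadjusted p = 0.0126 for both). A Mediator subunit record (XM_003393753.1) had 3.75, 1.66 and 0.553 CPM and 0 in the control (edgeR, unadjusted p = 0.0129).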

How the data were processed

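Poly(A) RNA of 16 gut pools was sequenced. The deposited table holds read counts for 10635 RefSeq transcript records and each library total, per the file headers. It also holds RPKM values, which the authors computed from count, length and total, and the percent of each record covered by reads, per the file headers. TopHat 1.9 is named in the submitters' processing notes; the counting program, genome build and annotation release are not given in the sources used here. Low counts were mostly even (69.1% of counts of 1 to 9, against 49.6% of 200 to 999), so 1 fragment may count more than once. RPKM was not used for tests.

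Counts were tested with edgeR 4.0.16 (R 4.3.3, limma 3.58.1): the edgeR expression filter kept 8406 records, library sizes were scaled by the trimmed mean of M values, and the quasi-likelihood test used colony and exposure as terms (9 residual degrees of freedom). Genes passed at a Benjamini-Hochberg adjusted p under 0.05. Colony L was set against the mean of K, S and T, then against each. Alternatives included DESeq2 1.42.0, other scalings and filters, no exposure block, K, S and T as one group, and leaving out each library and colony. Deviations of same-exposure libraries correlated between colony L and the other colonies at -0.148 to 0.181. Exposure was kept as a term in the model whatever these values, so libraries were matched by exposure across colonies. On simulated data (8267 genes, same comparison) the test recovered 61.8% of 68 genes changed by 1 on the log2 scale. It recovered 93.1% of 72 genes changed by 2, with 14 false calls among 8070 unchanged genes. Far more genes were changed there than the 9 called in the real data, so these rates need not hold for the real libraries. How spread between colonies or a single outlying library would alter the rates was not tested.

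Names come from the deposited descriptions with a match score of at least 100. RefSeq locus names and gene order (assembly iyBomTerr1.2) were matched for 5155 records, and no coordinates were used. The members and gene lists were chosen with earlier results of these data known. Genes were named by rule: up to 12 passing genes in each direction with the same sign at all exposures, up to 4 passing members of each list, up to 8 passing genes that do not overlap, up to 2 undescribed genes in each direction, the 6 genes furthest out on each side in L 161 with a mean of at least 5 CPM, and the 4 smallest p-values of the exposure difference. Other named genes, among them list members that did not pass, were chosen after their values were seen.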

Additional observations from a re-analysis of the deposited data

Results flagged for a closer look

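Of 87 sets of 4 libraries of 1 colony that were checked, 9 held 1 library far from the other 3, by Dixon's test at the 95% level. Chance alone flags about 1 set in 20.

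In colony L the flagged sets all concern genotype 161. It was the highest of 16 libraries in 1522 genes, against 320, 470 and 311 in the control, 068 and 075, and the lowest in 2019 genes, against 332, 444 and 277. Its covered share of the transcript was 55.1%, against 62.2%, 63.0% and 63.2%. The tetraspanin XM_003393594.1 stood at 8.01 CPM there, against 5.33, 5.19 and 5.56 CPM, and the TRP channel XM_003402075.1 at 19.9 CPM, against 9.05, 7.84 and 8.99 CPM.

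In colony K the control was the lowest of 16 in 648 genes, against 413, 407 and 419 in the other 3, and had 16 CPM of XM_003400974.1, against 24.5, 23.1 and 23.1 CPM. K 161 had 1 CPM of the TRP channel XM_003402132.1, against 2.57, 2.51 and 2.57 CPM, and K 068 a covered share of 58.3%, against 62.9%, 62.9% and 62.3%. What set these libraries apart was not tested.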

How the results depend on the processing

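Against the mean of K, S and T, 9 genes passed in colony L. The count was 109 with DESeq2, 17 with no replicate block, 0 with K, S and T as one group of 12, 36 without colony K, and 5 without colony S and without colony T. Leaving out 1 library gave 5 to 17 genes. Other scalings, filters and a length correction gave 8 to 10. The reductase, LOC100646603, LOC100642491 and the tetraspanin lost their call only with one group of 12, among 30 settings. The TRP channel lost its call in 18 of 29, XM_003400282.1 in 16 of 30 and XR_131905.1 in 15 of 30. In none of the 9 genes did the difference change sign in any setting.

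Between L and K (11 genes) DESeq2 gave 62 and no replicate block 20, and leaving out 1 library gave 6 to 14. Between L and S (7 genes) these were 171, 36 and 5 to 108, and 43 without L 161, the K control and S 075. Between L and T (7 genes) they were 72, 19 and 6 to 23, and 17 without the same 3 libraries. For the exposure difference (0 genes) DESeq2 gave 5, and leaving out 1 library gave 0 to 0; the fit without the L control could not be made. The 25 genes that do not overlap became 26 to 116 when 1 library was left out, as fewer libraries overlap less: 45, 116, 82 and 50 without the L control, L 068, L 075 and L 161, 47 without K 068 and 58 without the T control. The causes of the other shifts were not tested. At 8.47 to 9.29 M reads a library, genes under about 3 reads were not measurable.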
